A study of Rattus norvegicus with 22 samples.

Results

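The genes described here encode the steps by which cells break down glucose to pyruvate and lactate, the carriers that move glucose and lactate across the cell membrane, and the regulators and targets of the response to low oxygen. They were chosen by symbol as a list of 34 genes, and 33 of them matched a named transcript of the array, each with 1 transcript, out of 23188 transcripts in the table, of which 15049 carried a gene name. Egln1 matched no named transcript and was not analysed here. The 33 genes comprised 15 glycolytic enzymes, 4 lactate and pyruvate enzymes, 4 glucose and lactate transporters, 3 hypoxia regulators and 7 hypoxia targets.

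Gene expression was measured with Clariom S rat arrays in the spinal cord of 22 adult male Long-Evans rats, 1 array per rat, to ask how a contusion changed expression and how tamoxifen (TMX), a selective estrogen receptor modulator, altered that change. The groups were Sham/TMX- (n = 5), Sham/TMX+ (n = 6), SCI/TMX- (n = 5) and SCI/TMX+ (n = 6), where SCI stands for traumatic spinal cord injury. In the SCI groups the vertebral arch was removed at the ninth thoracic level and a 10 g rod fell from 50 mm onto the cord. The sham rats had surgery of the soft tissue only, so each SCI minus sham difference holds the laminectomy as well as the contusion. TMX+ rats received 5 mg/kg of TMX in ethanol and corn oil into the peritoneum 30 min after surgery, and TMX- rats received the vehicle. All groups shared the anaesthesia, the tramadol against pain, and collection at 24 h of a 20 mm segment centred on the injury or the matching site. Each rat is named by its number and letter in the sample titles, as in 13c, an SCI/TMX- rat.

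Glycolysis turns glucose into pyruvate, and lactate dehydrogenase turns pyruvate into lactate when pyruvate is not burned in the mitochondrion. When oxygen is low, prolyl hydroxylases no longer mark the alpha subunits of the hypoxia-inducible factors for breakdown, and these factors then bind short DNA motifs with the core ACGTG or GCGTG and raise transcription of many glycolytic genes. In the central nervous system glycolysis runs strongly in astrocytes and in activated myeloid cells, and lactate is passed between cells through monocarboxylate transporters.

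As background on where such motifs lie, the RefSeq promoter windows of the members (build GRCr8, 250 bases before to 50 after the start) were searched for ACGTG and GCGTG on both strands. Entries were found for 30 of the 33 members. At least 1 core was present in 23 of these 30 genes (76.7%), against 12253 of 27457 genes (44.6%) in the whole table of promoters. Split by the injury contrast without TMX given later, a core was present in 6 of 11 members that were higher (54.5%), in 5 of 5 that were lower and in 12 of 14 that passed the threshold in neither direction (85.7%). The 250 bases before the start are printed for 4 genes picked after their values were seen, Ldha, Pfkfb3 and Slc16a3, which rose, and Ankrd37, which did not pass the test. Capitals mark the cores on either strand, so that the palindrome CACGTG counts as 2 overlapping matches.
Ldha, chr1:106507842-106508091, + strand: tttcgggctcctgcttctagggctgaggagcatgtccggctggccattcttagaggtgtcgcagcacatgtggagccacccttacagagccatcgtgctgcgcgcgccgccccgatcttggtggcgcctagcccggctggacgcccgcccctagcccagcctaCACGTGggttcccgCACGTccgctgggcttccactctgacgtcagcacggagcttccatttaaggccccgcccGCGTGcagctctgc
Pfkfb3, chr17:71944683-71944932, + strand: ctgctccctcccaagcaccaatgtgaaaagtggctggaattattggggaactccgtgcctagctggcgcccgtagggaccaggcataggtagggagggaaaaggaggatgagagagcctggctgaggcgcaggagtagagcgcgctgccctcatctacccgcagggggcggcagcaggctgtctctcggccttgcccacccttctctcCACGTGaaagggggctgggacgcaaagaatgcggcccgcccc
Slc16a3, chr10:106712078-106712327, + strand: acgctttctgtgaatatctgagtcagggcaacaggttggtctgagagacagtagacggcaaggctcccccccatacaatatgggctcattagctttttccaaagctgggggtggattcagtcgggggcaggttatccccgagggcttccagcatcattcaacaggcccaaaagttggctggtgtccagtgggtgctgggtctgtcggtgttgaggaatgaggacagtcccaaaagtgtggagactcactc
Ankrd37, chr16:53001257-53001506, + strand: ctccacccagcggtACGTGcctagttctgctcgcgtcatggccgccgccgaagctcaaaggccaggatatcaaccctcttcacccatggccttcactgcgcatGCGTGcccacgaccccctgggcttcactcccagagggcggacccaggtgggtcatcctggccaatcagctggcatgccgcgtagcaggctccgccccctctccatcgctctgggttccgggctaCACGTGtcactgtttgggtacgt
These stretches held 4 matches in Ldha, 2 in Pfkfb3, 0 in Slc16a3 and 4 in Ankrd37. A match is a string of letters and not a measured binding site, and a stretch with no match says nothing of the rest of the gene.

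The medians of log2 signal per array lay between 5.41 and 5.47. The deposited values were already quantile-normalised, which makes such medians alike, so they do not measure the quality of the arrays. Markers of the cord were strongly measured, for example the neuronal gene Snap25 with a mean of 11.98 and the myelin gene Mbp with 12.44 in Sham/TMX-. Among the SCI/TMX- rats, 13c and 15c stood apart on the second principal component of all transcripts, with scores of 23.0 and 41.7, against -16.2 to -8.67 in the other 3. In SCI/TMX+, 11b had a score of -23.7, against -9.27 to 3.12 in the other rats of its group. Rat 11b was left out only in the fits that left out 1 array. Rats 13c and 15c were the lowest 2 of their group for 14 members, Pfkfb3, Gapdh, Slc2a1, Slc16a3, Hif1a and Adm among them, and the highest 2 for 8 members, Pgk1, Ldhb and Bnip3 among them. Without them, 11 members were higher and 4 lower at an adjusted p under 0.05 in SCI/TMX- against Sham/TMX-, since Gpi, Pgk1 and Pdha1 no longer passed. That fit had fewer arrays, and the share of all transcripts that passed in it was not counted.

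Injury raised a small set of these genes. In SCI/TMX- against Sham/TMX-, Hk2, Pfkfb3, Ldha and Slc16a3 passed the fold rule, which asks for a log2 fold change beyond 1 at an adjusted p below 0.05 (4 of 33 members, all higher). Over all transcripts this rule called 3.05%, with 1.98% higher and 1.07% lower. By the adjusted p alone, 12 members were higher, 6 were lower and 15 did not pass, so that 54.5% passed against 30.6% of all transcripts (12.8% higher and 17.8% lower). The values of the groups did not overlap for 9 members that were higher (8.96% of all transcripts) and 6 that were lower (12% of all transcripts). The median log2 fold change of the 33 members was 0.01, beside -0.01 over all transcripts, and the median size was 0.25 against 0.19. All tests are two-sided moderated tests of limma with Benjamini-Hochberg adjustment over all transcripts. In a whole segment of cord, fewer cells of a type and less RNA per cell cannot be told apart.

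**Figure D1:**
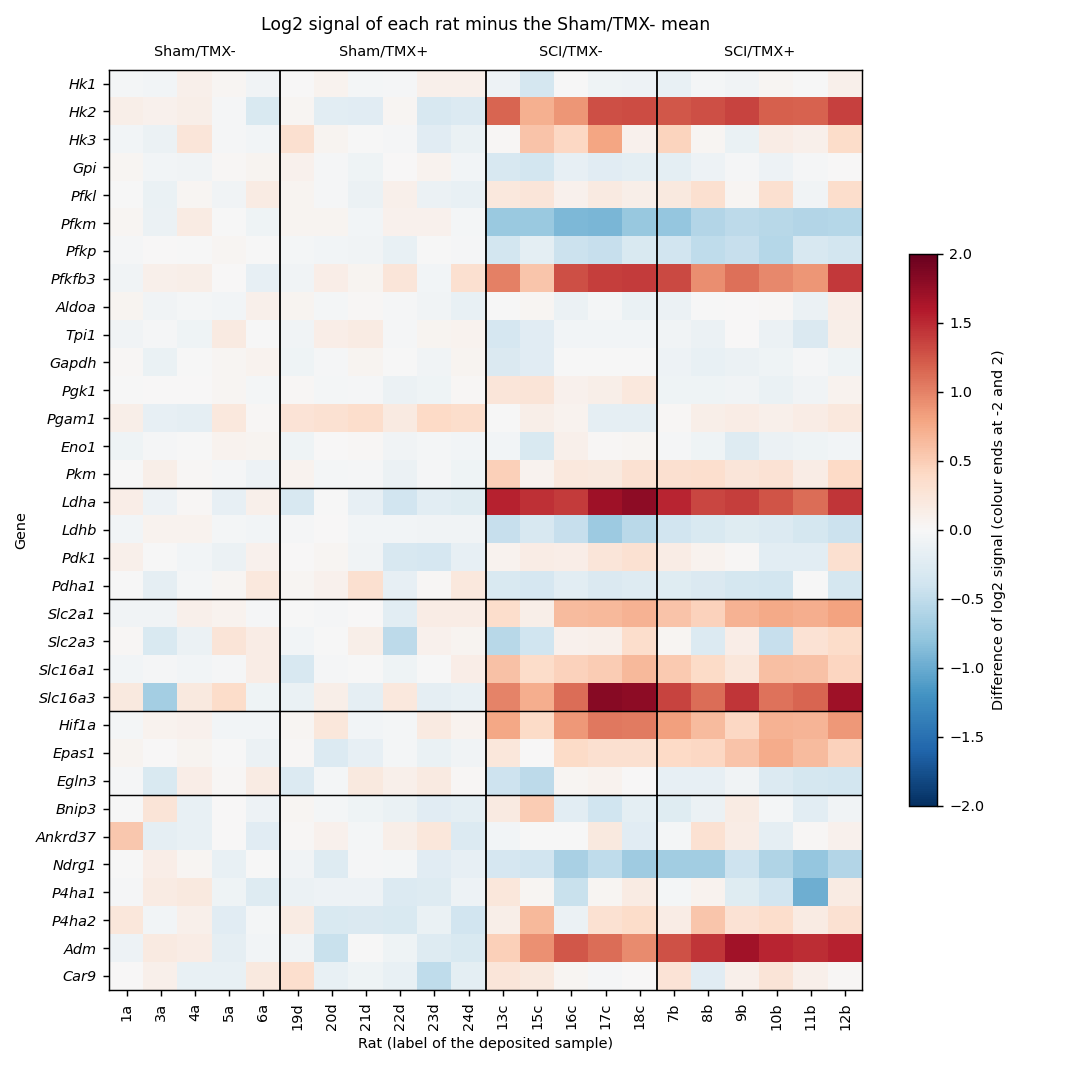
Difference between the log2 signal of each rat (columns) and the mean of Sham/TMX- for the 33 measured genes (rows, in the order glycolytic enzymes, lactate and pyruvate enzymes, transporters, hypoxia regulators, hypoxia targets). Red rows in both SCI groups are Hk2, Pfkfb3, Ldha, Slc16a3, Hif1a and Adm, with Slc2a1 and Slc16a1 fainter. Blue rows are Pfkm and, fainter, Ndrg1, and most other rows stay pale.

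Among the 15 glycolytic enzymes, 5 were higher and 3 lower in SCI/TMX- (53.3%, beside 30.6% of all transcripts). The 2 with the largest changes control the flow into the pathway. Hk2 encodes hexokinase II, which traps glucose in the cell as glucose 6-phosphate. Its log2 signal was 6.60, 6.56, 6.59, 6.45 and 6.16 in the Sham/TMX- rats and 7.64, 7.18, 7.36, 7.76 and 7.77 in the SCI/TMX- rats. The 2 groups did not overlap, and 15c had the lowest value of the injured rats. The log2 fold change was 1.07 (SE 0.11, limma adjusted p = 6.68e-08), a 2.10-fold rise. The call of a fold change beyond 1 rested on rat 6a, without which it was 0.99.

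Pfkfb3 encodes the kinase that makes fructose 2,6-bisphosphate, the activator of phosphofructokinase. Sham/TMX- rats had log2 signals of 6.25, 6.42, 6.43, 6.32 and 6.16, and SCI/TMX- rats of 7.32, 6.88, 7.61, 7.70 and 7.71. Rats 13c and 15c were the lowest of the injured group, yet above all sham rats. Expression was 2.19-fold higher (log2 fold change 1.13, SE 0.14, limma adjusted p = 4.59e-07), and 1.36 on the log2 scale without 13c and 15c.

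Of the other 13 glycolytic enzymes, 3 were higher, 3 were lower and 7 did not pass. Pfkm, the muscle-type subunit of phosphofructokinase, had the largest decrease of all 33 members. Signals on the log2 scale were 9.44, 9.29, 9.57, 9.39 and 9.31 in Sham/TMX- and 8.65, 8.65, 8.51, 8.49 and 8.64 in SCI/TMX-, with no overlap. This was a 1.76-fold decrease (log2 fold change -0.81, SE 0.08, limma adjusted p = 9.77e-09). Pfkp, the platelet-type subunit, was lower with a log2 fold change of -0.35 (limma adjusted p = 0.000512). Pfkl, the liver-type subunit, had a value of 0.16 that did not pass (limma adjusted p = 0.179). The 95% intervals of the 3 subunits were -0.97 to -0.66 for Pfkm, -0.50 to -0.20 for Pfkp and -0.02 to 0.35 for Pfkl, and the differences between subunits were not tested.

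Of the other hexokinases, Hk1, the isozyme of the resting nervous system, had a log2 fold change of -0.13 (95% interval -0.29 to 0.03), and Hk3, known from white blood cells, of 0.38 (95% interval 0.10 to 0.66, limma adjusted p = 0.0336). The call of Hk3 was lost in 7 of the 10 fits that left out 1 array of the contrast, and in 1 of the 8 other settings of the fit. Gpi, which converts glucose 6-phosphate to fructose 6-phosphate, was lower (log2 fold change -0.25, limma adjusted p = 0.00752), a call that was lost without 13c and 15c (-0.19, limma adjusted p = 0.0598) and with the arrays quantile-normalised once more (-0.18, limma adjusted p = 0.0531). Pkm, the pyruvate kinase that closes the pathway, was higher (0.25, limma adjusted p = 0.0159), a call that was lost without 13c (0.20, limma adjusted p = 0.06) and with only these 2 groups in the fit (limma adjusted p = 0.0669).

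Gapdh, which oxidises glyceraldehyde 3-phosphate and is often used as a reference gene, had log2 signals of 11.63, 11.47, 11.59, 11.64 and 11.67 in Sham/TMX- and of 11.31, 11.38, 11.60, 11.59 and 11.59 in SCI/TMX-. The lowest 2 values belonged to 13c and 15c. Its log2 fold change was -0.11 with a 95% interval of -0.26 to 0.05 (limma adjusted p = 0.314), and -0.01 without these 2 rats. Aldoa, Tpi1, Pgam1 and Eno1, the enzymes around it in the lower part of the pathway, lay between -0.15 and -0.04 and did not pass the test. Pgk1, which makes ATP in the step after Gapdh, was above all sham rats in every SCI/TMX- rat, with a log2 fold change of 0.18 (limma adjusted p = 0.0448). That call was lost in 8 of the 10 fits that left out 1 array. It was also lost in 4 of the 9 other settings of the fit, among them that without 13c and 15c (0.14, limma adjusted p = 0.185).

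Of the lactate and pyruvate enzymes, the 2 subunits of lactate dehydrogenase moved in opposite directions. Ldha encodes the subunit that prevails in muscle and other highly glycolytic tissue, and Ldhb the subunit of the heart. The log2 signal of Ldha was 8.53, 8.30, 8.43, 8.24 and 8.50 in Sham/TMX- and 9.94, 9.86, 9.80, 10.10 and 10.19 in SCI/TMX-. Every injured rat was more than 1 log2 unit above every sham rat, and 13c and 15c lay inside the range of their group. Ldha had the largest change of the 33 members, 2.98-fold (log2 fold change 1.58, SE 0.10, limma adjusted p = 6.18e-12).

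The log2 signal of Ldhb was 10.66, 10.79, 10.78, 10.67 and 10.66 in Sham/TMX- and 10.25, 10.39, 10.24, 9.99 and 10.17 in SCI/TMX-, again with no overlap. Expression was 1.42-fold lower after injury (log2 fold change -0.50, SE 0.08, limma adjusted p = 1.13e-05). The 95% interval of Ldha was 1.38 to 1.78 and that of Ldhb was -0.66 to -0.35. Pdha1, a subunit of the pyruvate dehydrogenase that feeds pyruvate into the mitochondrial cycle, was lower (log2 fold change -0.28, limma adjusted p = 0.0252). Its call was lost without 5a (limma adjusted p = 0.0512), without 6a (limma adjusted p = 0.0867), and without 13c and 15c (-0.25, limma adjusted p = 0.0928). Pdk1, a kinase that switches this enzyme off, had a value of 0.18 and did not pass (limma adjusted p = 0.204).

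Among the transporters, 3 of 4 were higher and none was lower (12.8% and 17.8% of all transcripts). Slc16a3 encodes monocarboxylate transporter 4, which exports lactate from glycolytic cells. On the log2 scale it measured 5.10, 4.23, 5.11, 5.26 and 4.82 in Sham/TMX- and 5.90, 5.64, 6.02, 6.72 and 6.69 in SCI/TMX-. The groups did not overlap, but both were wide, with rat 3a lowest among the sham rats and 17c and 18c highest among the injured. Slc16a3 rose 2.45-fold (log2 fold change 1.29, SE 0.19, limma adjusted p = 8.23e-06), and the log2 fold change was 1.57 without 13c and 15c. Slc16a1, monocarboxylate transporter 1, was higher by 0.51 on the log2 scale (limma adjusted p = 8.61e-05).

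Slc2a1 encodes the glucose transporter of the vessels of the cord. Its log2 signal was 8.85, 8.85, 9.03, 8.99 and 8.91 in Sham/TMX- and 9.29, 9.05, 9.56, 9.58 and 9.62 in SCI/TMX-. The groups did not overlap, although 15c lay only just above the highest Sham/TMX- rat. Its change was 0.49 on the log2 scale (SE 0.10, limma adjusted p = 0.000588), below the minimum of 1. Slc2a3, the neuronal glucose transporter, had a value of -0.08 (95% interval -0.43 to 0.27), or 0.18 without 13c and 15c, and shared all 22 values with another transcript of the table that has no name here.

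Of the hypoxia regulators, 2 of 3 were higher (12.8% of all transcripts). Hif1a encodes the oxygen-regulated alpha subunit of hypoxia-inducible factor 1, whose activity is set mainly by protein breakdown, which the arrays did not measure. The rats had log2 signals of 8.35, 8.45, 8.47, 8.33 and 8.34 in Sham/TMX- and 9.15, 8.76, 9.25, 9.43 and 9.43 in SCI/TMX-. All injured rats were above all sham rats. The log2 fold change was 0.82 (SE 0.11, limma adjusted p = 1.86e-06), and 0.99 without 13c and 15c. Epas1, the alpha subunit of the second factor and prominent in endothelium, was higher by 0.25 (limma adjusted p = 0.029). This call was lost in 5 of the 10 fits that left out 1 array, and in 1 of the 9 other settings of the fit. Egln3, a prolyl hydroxylase that is itself a target of the pathway, had a value of -0.17 (95% interval -0.41 to 0.08), or 0.04 without 13c and 15c.

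Of the 7 hypoxia targets, 1 was higher, 1 was lower and 5 did not pass. The share that passed, 28.6%, was close to the 30.6% of all transcripts. Adm encodes adrenomedullin, a peptide that widens vessels. Its log2 signal was 5.23, 5.51, 5.47, 5.15 and 5.26 in Sham/TMX- and 5.80, 6.24, 6.57, 6.44 and 6.27 in SCI/TMX-. The groups did not overlap, and 13c was the lowest injured rat. The log2 fold change was 0.94 (SE 0.12, limma adjusted p = 1.11e-06), short of the minimum of 1, and 1.05 without 13c. Ndrg1, a stress-responsive gene expressed in oligodendrocytes and Schwann cells, was lower (-0.52, limma adjusted p = 6.51e-05).

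The log2 fold change was -0.03 for Bnip3, a mitochondrial mediator of mitophagy, and -0.27 without 13c and 15c, its highest 2 rats (limma adjusted p = 0.0578). It was 0.01 for P4ha1, a collagen prolyl hydroxylase. P4ha2, the second such hydroxylase, had a value of 0.27 (limma adjusted p = 0.111). Car9, a carbonic anhydrase, and Ankrd37 had values of 0.09 and -0.02. The mean signals of Car9 (3.28) and Ankrd37 (3.18) lay above those of only 19.6% and 18.1% of all transcripts.

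**Figure D2:**
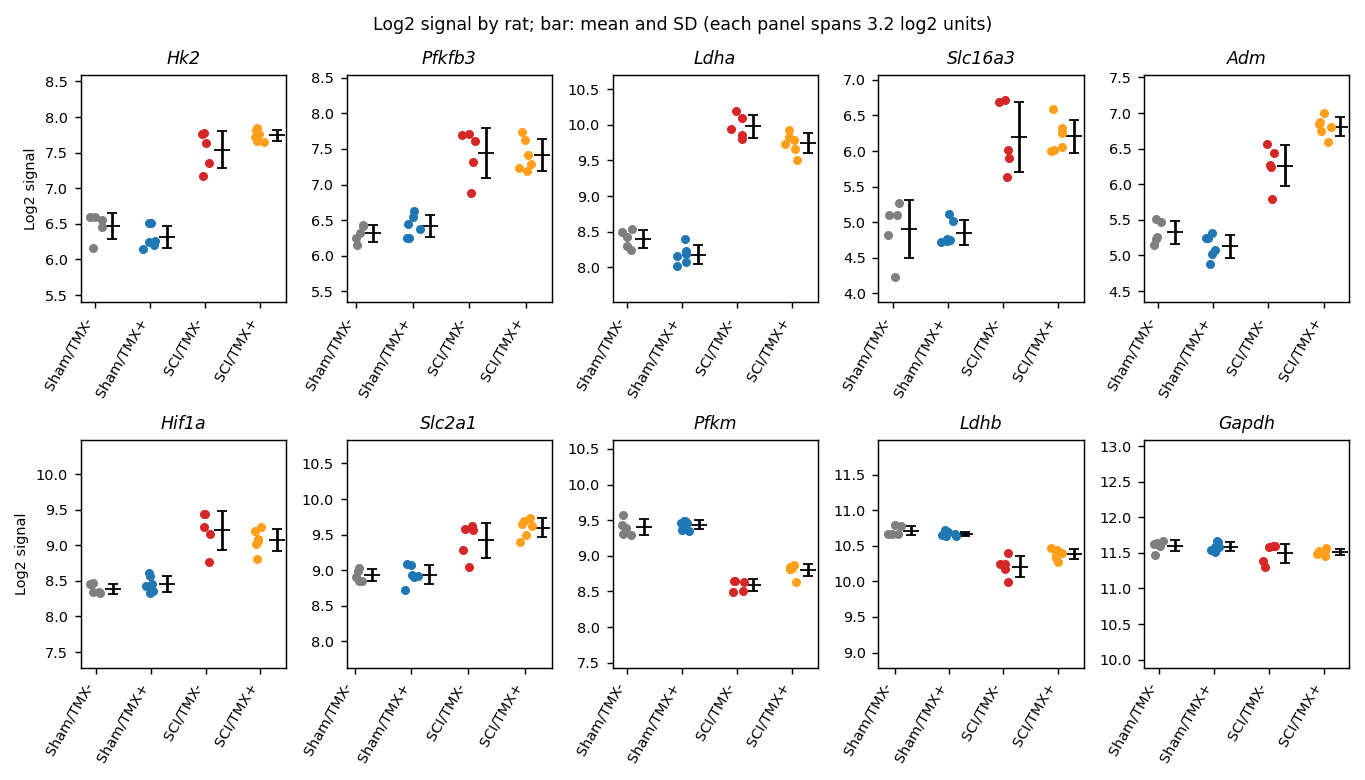
Log2 signal of 10 members by rat in the 4 groups (points), with the mean and SD beside them. Each panel spans the same 3.2 log2 units. The SCI rats lie above the sham rats for Hk2, Pfkfb3, Ldha, Slc16a3, Adm and Hif1a and below them for Pfkm and Ldhb, while the groups overlap for Gapdh. For Slc2a1 they lie above the sham rats with the same TMX status. Its lowest SCI/TMX- value (9.05) is below its highest Sham/TMX+ value (9.08).

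The injury contrast under TMX rests on other rats, SCI/TMX+ against Sham/TMX+. The fold rule called 5 members, the same 4 genes and Adm, all higher (3.04% of all transcripts were called, 1.93% higher and 1.11% lower). At an adjusted p under 0.05, 12 members were higher and 5 lower, which is 51.5% of the members and 34.1% of all transcripts (14.3% higher and 19.7% lower). The groups did not overlap for 10 members that were higher (9.16% of all transcripts) and 4 that were lower (11.7%). By role, 4 glycolytic enzymes were higher and 2 lower, 1 lactate or pyruvate enzyme was higher and 2 lower, 3 transporters and 2 regulators were higher, and 2 targets were higher and 1 lower. In the same order, the shares that passed were 40%, 75%, 75%, 66.7% and 42.9%, beside 34.1% of all transcripts.

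Ldha ran from 8.02 to 8.39 (median 8.17) in Sham/TMX+ and from 9.51 to 9.93 (median 9.76) in SCI/TMX+. Its log2 fold change of 1.57 (SE 0.09, limma adjusted p = 8.68e-13) was close to that without TMX. Hk2 ran from 6.15 to 6.52 (median 6.25) in Sham/TMX+ and from 7.65 to 7.85 (median 7.74) in SCI/TMX+. It was 2.70-fold higher (log2 fold change 1.43, SE 0.10, limma adjusted p = 6.4e-11), and the 6 injured rats were tightly grouped. Slc16a3 ran from 4.72 to 5.12 (median 4.76) and from 6.00 to 6.59 (median 6.16), a 2.56-fold rise (1.36, SE 0.17, limma adjusted p = 8.64e-07).

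Pfkfb3 ran from 6.24 to 6.63 (median 6.41) in Sham/TMX+ and from 7.19 to 7.73 (median 7.35) in SCI/TMX+. Its log2 fold change of 1.00 (SE 0.12, limma adjusted p = 4.99e-07) lay at the minimum, and the call was lost without 7b (0.96), 12b (0.94), 19d (0.97), 21d (0.99) or 23d (0.97). Adm ran from 4.88 to 5.31 (median 5.16) and from 6.60 to 7.00 (median 6.82). It had the largest change of the 33 members in this contrast, 3.21-fold (1.68, SE 0.11, limma adjusted p = 1.1e-11), with a gap of more than 1 log2 unit between the groups.

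Hif1a ran from 8.33 to 8.61 (median 8.44) in Sham/TMX+ and from 8.81 to 9.25 (median 9.08) in SCI/TMX+ (log2 fold change 0.62, SE 0.10, limma adjusted p = 2.03e-05). Slc2a1 ran from 8.72 to 9.08 (median 8.93) and from 9.39 to 9.74 (median 9.64), a rise of 0.66 (SE 0.09, limma adjusted p = 4.09e-06). Both genes separated all SCI/TMX+ from all Sham/TMX+ rats. Ldhb ran from 10.64 to 10.71 (median 10.66) and from 10.27 to 10.46 (median 10.38), and it was lower (-0.29, SE 0.07, limma adjusted p = 0.00187). Gapdh ran from 11.52 to 11.66 (median 11.58) and from 11.46 to 11.57 (median 11.51), with a log2 fold change of -0.08 (95% interval -0.22 to 0.06).

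Epas1 was higher by 0.65 (limma adjusted p = 4.27e-07) and P4ha2 by 0.51 (limma adjusted p = 0.000839), while Pfkm was lower (-0.63, limma adjusted p = 7.92e-08), as were Pfkp (-0.38), Ndrg1 (-0.50) and Pdha1 (-0.35). Across both injury contrasts, 10 members were higher in each, 5 were lower in each and 13 passed in neither. How many of all transcripts passed in both or in neither was not counted, so these numbers have no background beside them. Hk3, Gpi and Pgk1 passed without TMX alone, and Pfkl and P4ha2 with TMX alone, although none of these 5 genes passed the interaction test. The fold changes of the 2 contrasts, which share no arrays, correlated across the 33 genes with a Pearson r of 0.95 (Spearman rho 0.94). Over all transcripts these values were 0.90 and 0.78. The sign was the same for 27 of 33 members and for 17629 of 23188 transcripts. Genes are not independent replicates, so no test was attached to these values.

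**Figure D3:**
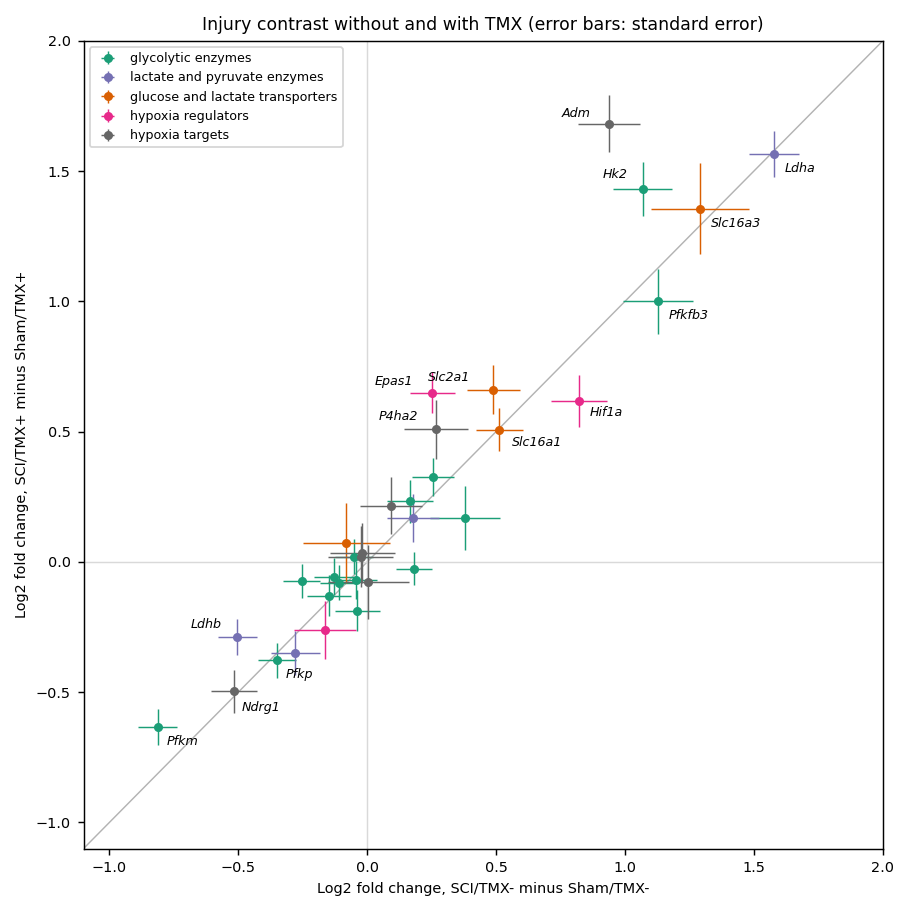
Log2 fold change of the 33 genes in the injury contrast without TMX (x axis) and with TMX (y axis), with standard errors as bars, the line of equality in grey and colours for the 5 roles. Most genes lie along the line, and Adm, at 0.94 and 1.68, is the farthest from it.

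The genes that rose did so in cords whose marker genes for cell types also shifted. As background for the counts below, 12.8% of all transcripts were higher and 17.8% lower at an adjusted p under 0.05 without TMX. With TMX these shares were 14.3% and 19.7%. In SCI/TMX-, 9 of 10 monocyte and macrophage markers and 5 of 9 neutrophil markers were higher at an adjusted p under 0.05, and the log2 of the summed macrophage markers ran from 10.73 to 11.58 against 9.48 to 9.94 in Sham/TMX-. The summed neutrophil markers ran from 7.90 to 8.55 against 6.72 to 7.20, and 5 of 5 red blood cell markers were higher. Neuron markers were lower for 9 of 10 genes (sum 12.90 to 13.14 against 13.41 to 13.54), astrocyte markers for 5 of 7, oligodendrocyte markers for 4 of 7 with 1 higher, and resting microglia markers for 4 of 4. In endothelium 2 of 7 markers were higher. Rats 13c and 15c had the lowest macrophage sums of SCI/TMX- (10.78 and 10.73, the others 11.34 to 11.58). Their red blood cell sums were also lowest (11.56 and 11.43, the others 12.26 to 12.52), as were their neuron, oligodendrocyte and resting microglia sums. This did not hold for the neutrophil, astrocyte and endothelial sums. Under TMX the macrophage sum ran from 10.92 to 11.29 against 9.49 to 9.94, and the neuron sum from 13.02 to 13.18 against 13.43 to 13.56. In that contrast 9 of 10 macrophage, 5 of 9 neutrophil, 2 of 7 endothelial and 4 of 5 red blood cell markers were higher. All 10 neuron markers, 5 of 7 astrocyte, 5 of 7 oligodendrocyte and 4 of 4 resting microglia markers were lower. In Sham/TMX- the mean signals ran from 3.89 (Adgre1) to 8.95 (Lyz2) among the macrophage markers and from 2.56 (Retnlg) to 4.39 (Cxcr2) among the neutrophil markers. The part of these shifts in the changes of the 33 genes was not tested.

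The wider pathway, from lists of further isozymes, enzymes, carriers, regulators and targets (57 genes measured), held genes that rose and genes that fell. In SCI/TMX- 5 were higher and 17 lower at an adjusted p under 0.05 (12.8% and 17.8% of all transcripts), and in SCI/TMX+ 8 were higher and 18 lower (14.3% and 19.7% of all transcripts). Their median log2 fold change was -0.13 without TMX and -0.12 with TMX, below the value of -0.01 to -0.02 over all transcripts. Only Pdk4 and Angptl4, 2 of 57 genes, passed the fold rule in either contrast, where 3.05% (SCI/TMX-) and 3.04% (SCI/TMX+) of all transcripts did. Pdk4, a kinase that switches pyruvate dehydrogenase off and is also raised by fasting and glucocorticoids, ran from 5.43 to 6.64 in Sham/TMX- and from 7.13 to 7.77 in SCI/TMX- (1.30, SE 0.28, limma adjusted p = 0.00065), and its change under TMX was 1.86 (limma adjusted p = 2.04e-06). Angptl4, a secreted inhibitor of lipoprotein lipase, ran from 5.16 to 5.55 and from 6.11 to 7.18 (1.30, SE 0.19, limma adjusted p = 6.28e-06), and it passed the fold rule under TMX as well.

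Among the further glycolytic isozymes, 1 was higher and 4 lower of 11 in SCI/TMX-. Pfkfb4, a sister enzyme of Pfkfb3, was higher (0.51), and Aldoc (-0.45), Eno2 (-0.23), Tigar (-0.24) and Pfkfb2 (-0.35) were lower. Eno2 and Aldoc are also among the neuron and astrocyte markers. Of 11 further lactate and pyruvate enzymes, 2 were higher, Pdk4 and the phosphatase Pdp1 (0.51), and 5 were lower, among them Pdk2 (-0.87), Pdk3 (-0.63) and the mitochondrial pyruvate carriers Mpc1 (-0.36) and Mpc2 (-0.35). Of the 4 pyruvate dehydrogenase kinases measured, then, 1 rose, 2 fell and Pdk1 did not pass. The shares that passed were 45.5% of the further isozymes and 63.6% of the further lactate and pyruvate enzymes, beside 30.6% of all transcripts.

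Of 9 further carriers, none was higher and 3 were lower, Slc2a13 (-0.57), Slc16a7 (-0.62), which is monocarboxylate transporter 2 of neurons, and Slc2a8 (-0.25). Of 10 further regulators, Arnt2, a partner of the hypoxia-inducible factors in neurons, and the ubiquitin ligase Siah2 were lower (-0.64 and -0.54). Of 16 further targets, Angptl4 and the transcriptional repressor Bhlhe40 (0.97) were higher and Bnip3l (-0.53), Car12 (-0.82) and Narf (-0.46) were lower. The shares that passed were 33.3% of these carriers, 20% of the regulators and 31.25% of the targets, beside 30.6% of all transcripts. Vegfa, the growth factor of vessels and a classic target, ran from 7.91 to 8.35 in Sham/TMX- and from 7.80 to 8.72 in SCI/TMX-, which overlap. In SCI/TMX+ it was higher by 0.34 than in Sham/TMX+ (limma adjusted p = 0.0394).

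TMX moved none of the 33 genes past its thresholds. In SCI/TMX+ against SCI/TMX-, the TMX rule, a log2 fold change beyond 0.7 at an unadjusted p below 0.05, called 0 of 33 members (0.129% of all transcripts), and 0 passed an adjusted p under 0.05 (0.0216% of all transcripts). At an unadjusted p under 0.05 alone, 7 members passed, 5 higher and 2 lower, where 10.4% of all transcripts did. The median size of the change was 0.10, beside 0.10 over all transcripts, and the largest was 0.55.

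Adm was the member with the largest difference. Its log2 signal was 5.80, 6.24, 6.57, 6.44 and 6.27 in the SCI/TMX- rats and ran from 6.60 to 7.00 in the SCI/TMX+ rats. The groups did not overlap, but the gap between 16c and the lowest SCI/TMX+ rat, 7b, was small. The log2 fold change was 0.55 (SE 0.11, 95% interval 0.31 to 0.78, limma adjusted p = 0.0847), which did not pass. It was 0.62 without 16c (limma adjusted p = 0.0309), and 0.38 without 13c and 15c (limma adjusted p = 0.263). Across the same rats, none of the blood cell markers passed an adjusted p of 0.05. At an unadjusted p under 0.05, 1 of 10 monocyte and macrophage markers was higher (Cd163, 0.34) and 1 lower (Ccr2, -0.85), 2 of 9 neutrophil markers were lower (Csf3r, -0.47, and Fpr1, -0.26), and 1 of 5 red blood cell markers was higher (Alas2, 0.56). Over all transcripts, 10.4% had an unadjusted p under 0.05 in this contrast. The median log2 fold changes of these marker lists were -0.03, -0.13 and 0.22. The summed macrophage markers ran from 10.73 to 11.58 in SCI/TMX- and from 10.92 to 11.29 in SCI/TMX+, and the red blood cell sum from 11.43 to 12.52 and from 12.15 to 12.62. Their part in the value of Adm was not tested.

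Epas1 and Pgk1 were the other 2 members whose SCI groups did not overlap. Non-overlap with higher or lower values under TMX was seen for 0.418% and 0.367% of all transcripts. Epas1 was 9.60, 9.39, 9.75, 9.69 and 9.70 in SCI/TMX- and ran from 9.78 to 10.12 in SCI/TMX+ (0.29, SE 0.08, limma adjusted p = 0.211). Pgk1 was 10.14, 10.17, 10.00, 10.02 and 10.11 in SCI/TMX- and ran from 9.77 to 9.97 in SCI/TMX+ (-0.24, SE 0.07, limma adjusted p = 0.177). Gpi (0.18), Pfkm (0.21), Ldhb (0.17) and Ldha (-0.24) had an unadjusted p under 0.05, and none passed after adjustment. Hif3a, a regulator outside the 33 genes, met the TMX rule with 0.91 (limma adjusted p = 0.211), at a low signal of 2.83 to 3.93 in SCI/TMX- and 3.44 to 4.95 in SCI/TMX+.

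In the uninjured cord, TMX moved no member past either rule (0 of 33, where 0.0302% of all transcripts met the TMX rule and 0.0129% passed an adjusted p under 0.05). At an unadjusted p under 0.05, 2 members passed, where 5.46% of all transcripts did. Pgam1, a phosphoglycerate mutase, was 9.31, 9.04, 9.02, 9.41 and 9.23 in Sham/TMX- and ran from 9.38 to 9.60 in Sham/TMX+. The groups overlapped through 5a, and the log2 fold change was 0.31 (SE 0.08, limma adjusted p = 0.605). Ldha was lower under TMX in sham (-0.23) and in SCI rats (-0.24) by similar values, neither past the adjusted threshold.

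**Figure D4:**
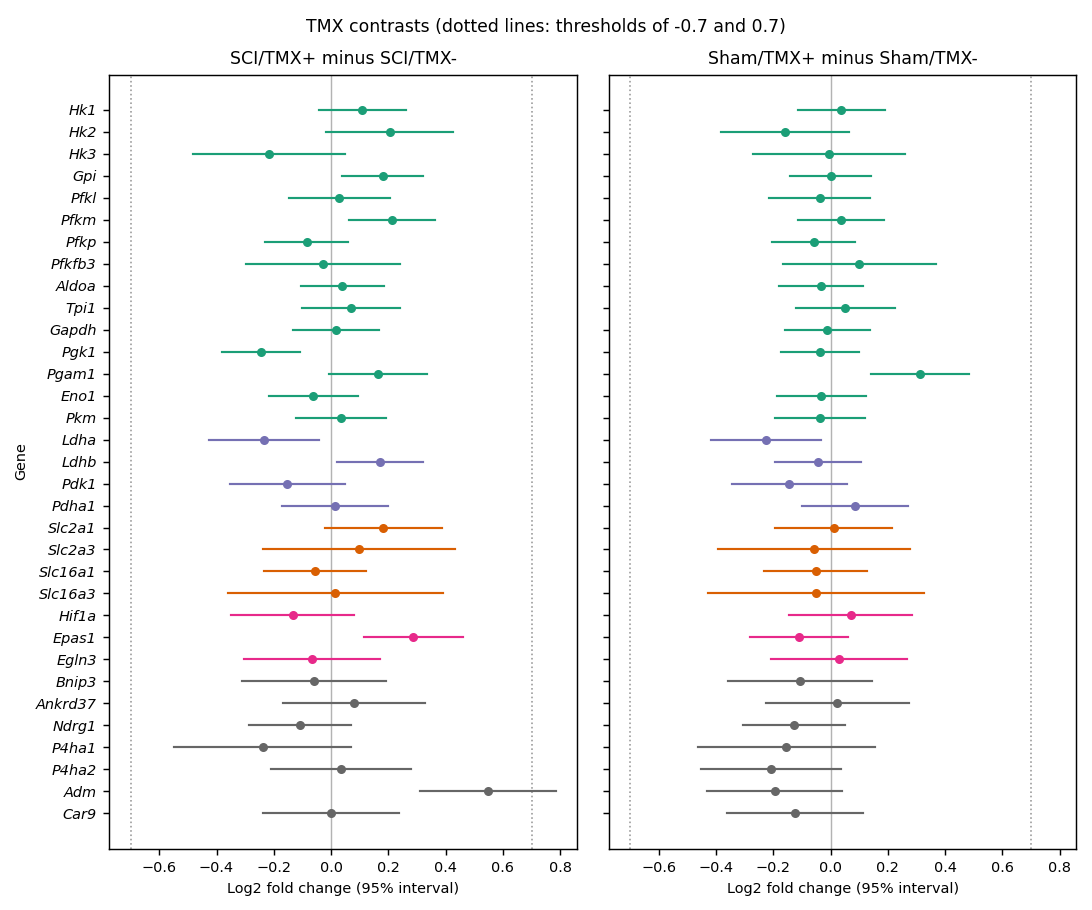
Log2 fold change of TMX with its 95% interval for the 33 genes in injured rats (left) and sham rats (right), in the order of the roles. All point values lie inside the dotted thresholds of -0.7 and 0.7, and the widest departure is Adm in injured rats at 0.55.

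The interaction, the effect of TMX in SCI rats minus that in sham rats, was called for 0 of 33 members at an adjusted p under 0.05, and for 0% of all transcripts. At an unadjusted p under 0.05, 5 members passed, where 6.84% of all transcripts did. Adm had the largest value, 0.74 (SE 0.16, 95% interval 0.41 to 1.08, limma adjusted p = 0.314), the sum of 0.55 in injured rats and the reverse of -0.20 in sham rats. Epas1 (0.40), Hk2 (0.36), Ldhb (0.22) and Pgk1 (-0.21) followed, and none of them passed after adjustment. For Ldha the interaction was -0.01 (95% interval -0.28 to 0.26), and for Hif1a it was -0.20 (95% interval -0.51 to 0.10).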

How the data were processed

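RNA of 22 rats was hybridised to 22 Clariom S rat arrays, 1 per rat. Per the labels and methods, the authors processed the scans with RMA in oligo 1.56 and fitted limma 3.48.3. The deposited values are log2 RMA signals per transcript, already background-corrected, quantile-normalised and summarised, and they were used as deposited. Array numbers limit the precision, and background, slide and scan were not examined. Transcripts were named through the platform annotation and RefSeq by gene ID. The 33 members and all lists were chosen with earlier results of these data known. A group-means model over the 22 arrays was fitted with limma 3.58.1 (R 4.3.3, 18 residual and 6.99 prior degrees of freedom), and p-values were adjusted over 23188 transcripts. The thresholds on fold and p followed the study's methods. Values of each TMX- rat are given for members past a fold rule and for Hif1a, Gapdh, Ldhb and Slc2a1. The TMX+ groups are given as ranges, with medians in the injury contrast. Other members with values of each rat in a TMX- group (Pfkm, Epas1, Pgk1, Pgam1) were chosen after their values were seen. Further pathway genes were named, at most 4 per list and direction, where they passed a test. Marker sums are log2 of summed linear signals. The fit was tested on simulated data. Promoter windows are those of RefSeq. Figures were drawn with matplotlib 3.10.9.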

Additional observations from a re-analysis of the deposited data

Results flagged for a closer look

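In groups of 5 or 6 rats, 8 of 132 sets of values (33 genes in 4 groups) held a rat far from the others by Dixon's test at the 95% level, where chance gives about 1 in 20, and the 8 belonged to 8 different rats. In SCI/TMX-, 15c was lowest for Hk1 (8.61) and 16c for P4ha1 (7.56). In SCI/TMX+, 7b was lowest for Pfkm (8.63), 12b highest for Pgk1 (9.97) and 11b highest for Pdha1 (8.79). In Sham/TMX-, 4a was highest for Hk3 (4.75) and 6a for Slc16a1 (8.34). In Sham/TMX+, 22d was lowest for Slc2a3 (6.01).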

How the results depend on the processing

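The members called by the fold rule numbered 4 in SCI/TMX- (3 to 5 when 1 array was left out, 4 to 5 under the other settings) and 5 in SCI/TMX+ (4 to 5, and 5). At an adjusted p under 0.05, 12 were higher in SCI/TMX- (9 to 11 without 1 array, 8 to 12 otherwise) and 6 lower (5 to 6, and 4 to 6), and in SCI/TMX+ 12 were higher (11 to 13, and 11 to 12) and 5 lower (5 to 6, and 5 to 7). For TMX in SCI rats, the 0 members at an adjusted p under 0.05 became 2 with a trend and robust eBayes (Adm and Pgk1), 1 with transcripts of low signal left out (Adm), and 0 to 1 without 1 array. TMX in sham rats and the interaction stayed at 0 in all settings run. Shares over all transcripts were counted in the main fit only. No fold change of a called member reversed. Of 3549 values of single members under the alternatives, 3540 stayed as in the main fit, called or not called, 6 lost a call and 3 gained one. Only the 4 members in SCI/TMX- and 5 in SCI/TMX+ had a call to lose, with 19 and 20 alternatives each, so most of the 3540 were never called. The 9 changes belong to Adm, Hk2 and Pfkfb3. Adm also passed the minimum in SCI/TMX- with array weights (1.02) and without 13c and 15c (1.10). At an adjusted p alone, Pfkl in SCI/TMX+ was lost in 6 of the 12 fits that left out 1 array, and in 1 of the 8 other settings. Leaving out transcripts of low signal kept 11594 transcripts and 30 members. A second transcript per gene could not be tried, since each member has 1.

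The sample labels give no pairing of rats, and the replicate numbers follow the order of the samples in each group. The deviations of 31 same-numbered pairs correlated with a median r of 0.02 (-0.21 to 0.23), beside 0.0006 for pairs of other numbers. Of the 31, 5 were over 0.1 and 8 were best with their own number. Low values do not exclude a pairing or batch of another kind. With the replicate number as a block, 4 members were called in SCI/TMX- (11 higher and 6 lower at an adjusted p under 0.05), 5 in SCI/TMX+ (12 and 6), and 0 for TMX and the interaction.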
